A study of Mus musculus with 43 samples.

Results

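Oxidative phosphorylation was followed through the genes for its 5 enzyme complexes, at the level of RNA, in mouse full-grown oocytes and morulae that carried mutations in the Polycomb system. Members were chosen by name: nuclear symbols beginning with Nduf, Cox4 to Cox8, Uqcr or Atp5, the 4 Sdh genes from Sdha to Sdhd, and the 13 protein-coding genes of the mitochondrial genome. The rule gave 107 genes, 94 nuclear and 13 mitochondrial-encoded, of 35842 gene symbols in the first oocyte table, 35869 in the second and 35842 in the morula table. By complex, the nuclear members divided into 44 for complex I (7 core subunits, 29 accessory subunits and 8 assembly factors), 4 for complex II, 9 for complex III, 20 for complex IV and 16 for complex V. The 9 for complex III include 1 retrogene copy, Uqcrh-ps1, while Atp5c1-ps, a pseudogene copy, was left unassigned. The mitochondrial genome supplied 7 for complex I (ND1 to ND6 and ND4L), 1 for complex III (CYTB), 3 for complex IV (COX1 to COX3) and 2 for complex V (ATP6 and ATP8).

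The series held 43 RNA-seq libraries. The first oocyte table compared 2 libraries of control oocytes, called PRC1-WT, with 2 of oocytes labelled as PRC1 catalytic dead (PRC1-CD), each made from 10 pooled oocytes. In the second, 3 wild-type (WT) libraries stood beside 3 libraries of Pcgf1/6 double-knockout oocytes (DKO) and 3 of triple-knockout oocytes that also lacked Mll2 (TKO). The morula table held 10 libraries of wild-type embryos, 10 of maternal double-knockout embryos (matDKO) and 10 of maternal triple-knockout embryos (matTKO). PRC1 is Polycomb repressive complex 1, which places ubiquitin on histone H2A at silenced genes. PCGF1 and PCGF6 are subunits of variant forms of it, and MLL2, encoded by Kmt2b, methylates histone H3 at promoters. The number of oocytes or embryos per library in the later tables, the Cre driver, the age of the animals and the strain are not given in the sources used here, nor is it said that replicates came from separate animals. The p-values therefore measure the spread between these libraries, which may be technical.

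As background, complexes I and II pass electrons from NADH and succinate to ubiquinone, complex III hands them to cytochrome c, and complex IV gives them to oxygen. Complexes I, III and IV pump protons, and complex V, the ATP synthase, uses the gradient to make ATP. Complex II alone is built entirely from nuclear genes. The mitochondrial genome is inherited through the oocyte, which stores many copies of it, and its genes are transcribed as long RNAs from both strands by a polymerase of their own before being cut into mRNAs. Matched expression of the nuclear and mitochondrial parts therefore runs through separate machinery.

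The layout of the mitochondrial genes bears on how their RNA can be counted, and is shown here by 2 overlaps (GRCm38 coordinates, GENCODE M21 annotation). ATP8, a small subunit of the ATP synthase membrane part, lies at M:7766-7969 on the plus strand. Its last 43 bases, in capitals, are also the start of ATP6.
ATP8: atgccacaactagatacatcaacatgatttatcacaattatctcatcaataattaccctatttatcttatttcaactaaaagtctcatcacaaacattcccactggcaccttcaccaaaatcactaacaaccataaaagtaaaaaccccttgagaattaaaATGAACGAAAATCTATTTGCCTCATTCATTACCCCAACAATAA
ND5 ends inside ND6, which is the only protein-coding gene on the opposite strand. The last 60 bases of ND5, at M:13506-13565 on the plus strand, are shown with the 14 bases shared with ND6 (M:13552-14070, minus strand) in capitals.
ND5 end: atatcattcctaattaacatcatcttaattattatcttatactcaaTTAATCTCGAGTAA
ND4L shares 7 bases with ND4, and COX3 shares 1 with ATP6. The kits named in the labels do not mark strand, so reads over the ND5 and ND6 overlap cannot be assigned to one gene by strand. Reads over the rest of ND6 cannot be assigned to a strand either.

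Promoter windows of 2 nuclear members whose RNA changed in oocytes are shown (RefSeq, GRCm38.p6, 250 bases before an annotated start). NRF1, a factor known to bind promoters of respiratory genes, has a palindromic motif of GCGC, then any base and T, then GCGC, which was searched on both strands, the other strand reading GCGC, A, any base, GCGC. Of the 94 nuclear members, 76 had a promoter entry, with 82 windows in all. The motif stood in 15 of these windows (18.3%), against 1228 of 32841 windows (3.74%) over all promoters of the same length. Members' windows held a median of 15 CG dinucleotides (range 1 to 35) and all windows a median of 6 (range 0 to 56). A match is a description of letters, not of a site in use. Atp5g3, one of the genes for the rotating c-ring of ATP synthase, had no match in 2:73911327-73911576 (minus strand). This window lies inside the span of the gene (2:73908447-73912464), before an internal start. The bases before the outer end of Atp5g3 were not searched.
Atp5g3: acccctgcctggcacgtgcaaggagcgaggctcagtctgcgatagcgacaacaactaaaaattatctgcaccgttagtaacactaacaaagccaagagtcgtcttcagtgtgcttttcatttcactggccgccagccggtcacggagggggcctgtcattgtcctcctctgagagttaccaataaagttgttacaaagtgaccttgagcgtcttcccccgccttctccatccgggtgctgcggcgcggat
Sdha, the flavoprotein subunit of succinate dehydrogenase, had 3 matches, in capitals, in 13:74350241-74350490 (minus strand).
Sdha: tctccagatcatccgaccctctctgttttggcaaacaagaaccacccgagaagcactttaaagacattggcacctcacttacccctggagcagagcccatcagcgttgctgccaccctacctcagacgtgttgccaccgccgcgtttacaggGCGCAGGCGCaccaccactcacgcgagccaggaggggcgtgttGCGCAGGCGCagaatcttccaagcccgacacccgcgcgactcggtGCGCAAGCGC

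The RNA of the targeted genes followed the labels in the knockout oocytes, and the catalytic-dead label was not checked. Pcgf1 read 1077 to 1153 RPKM in WT, 10.6 to 13.4 in DKO and 10.7 to 13.7 in TKO, Pcgf6 read 148 to 159, 55.1 to 60.3 and 61.9 to 81.6, and Kmt2b read 4.43 to 5.16, 3.58 to 4.21 and 1.04 to 1.31. In morulae only Pcgf1 in matDKO lay wholly below WT (5.23 to 15.6 against 17.3 to 33.2 TPM), which is no check of a maternal deletion once the embryo transcribes its own genes. Oocyte markers summed to 7507 to 10717 RPKM in oocyte libraries and 1.14 to 49.8 TPM in morulae. Granulosa and cumulus markers summed to 17.7 to 18.9 RPKM in PRC1-WT and 32.9 to 37.8 in PRC1-CD, and to 23.1 to 26.5 in WT, 16.3 to 17.5 in DKO and 21.8 to 25.7 in TKO. Stroma and blood markers summed to 0.97 to 1.05 RPKM in PRC1-WT, 4.99 to 5.97 in PRC1-CD and at most 3.44 in the knockout table, with Hbb-bs at 0 in every oocyte group. Trophectoderm markers summed to 15.2 to 16.7 RPKM in PRC1-WT and 44.4 to 54.2 in PRC1-CD, and to 10.5 to 12.99 in WT, 9.89 to 17.8 in DKO and 15.7 to 25.8 in TKO. Inner cell mass markers summed to 20.9 to 27.4 RPKM in PRC1-WT and 20.9 to 33.1 in PRC1-CD, and to 16.9 to 18.9 in WT, 19.8 to 22.6 in DKO and 26.5 to 34.7 in TKO. 5 morula libraries stood apart from the rest (matDKO 7, 8 and 9, matTKO 8 and 9), each with a correlation under 0.91 to its group. One PRC1-CD library (replicate 2) is labelled as embryo in its tissue field and as full-grown oocyte in its title. All libraries are bulk, so fewer cells of a type and less RNA per cell cannot be told apart.

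In wild-type oocytes some of the mitochondrial-encoded mRNAs were among the more abundant RNAs. ATP6 ranked 59 and COX3 62 among all genes by mean RPKM, a scale per transcript length, and in the PRC1-WT controls they ranked 18 and 25. The lowest of the 13 in WT, ND6, ND4L and ND5, ranked 1237, 1347 and 1377, and the nuclear member Atp5e ranked 49. The 13 together made 0.897 to 1.07% of the summed RPKM of a WT library, and the 94 nuclear members made 3.79 to 3.97%. In wild-type morulae, on the TPM scale of a separately normalised table, COX3 ranked 2, ATP6 3 and COX2 4, and the 13 genes made 4.81 to 12.0% of the total against 5.19 to 6.96% for the nuclear members. The ratio of the mitochondrial to the nuclear sum averaged 0.247 in WT oocytes and 1.26 in WT morulae. In the 2 PRC1-WT libraries it was 0.687 and 0.353, and it ranged from 0.374 to 0.581 in the 3 TKO libraries of the other table. The tables and stages were set side by side without a test, since the tables were normalised separately.

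Among nuclear members, Atp5e (the epsilon subunit of ATP synthase; 1374 RPKM on average) and Atp5j2 (a membrane subunit of it; 1204) were highest in WT oocytes, and Atp5j2 (925) and Ndufab1 (an acyl carrier protein; 911) in PRC1-WT. In WT morulae Cox6c (3558 TPM) and Cox7c (3020), both small subunits of complex IV, led. Isoforms of complex IV subunits differed in level. Widespread forms were high at both stages: Cox6a1 averaged 459 RPKM in WT oocytes and 2342 TPM in WT morulae, Cox8a 430 RPKM and 2687 TPM, and Ndufa4 599 RPKM and 1387 TPM. The muscle form Cox6a2 averaged 44.9 RPKM in WT oocytes and 0.264 TPM in morulae, and Cox6b2, known from testis, 223 RPKM and 58.8 TPM. The muscle form Cox7a1 read 1.90 RPKM and 102 TPM. Cox4i2, the hypoxia-linked form, read 2.58 RPKM and 0.421 TPM. Cox8c averaged 6.56 RPKM and 5.11 TPM, while Cox7b2 and Cox8b did not reach a mean of 1 in any group.

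Some members stood at unlike levels in WT oocytes and WT morulae, whose tables were normalised separately. These were chosen after their values were seen. Uqcrc1, a core protein of complex III, averaged 2.03 RPKM in WT oocytes and 305 TPM in morulae. Atp5d, the delta subunit of ATP synthase, averaged 35.2 RPKM and 593 TPM, and Atp5g3 90.6 RPKM and 1489 TPM. The complex I assembly factor Ndufaf1 averaged 0.167 RPKM and 29.0 TPM, whereas another, Ndufaf4, stood the other way at 156 RPKM and 16.7 TPM.

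All 13 mitochondrial-encoded mRNAs rose in TKO oocytes, against both WT and DKO. Log2 differences in this account are on the log2(value + 1) scale. Against WT they ranged from 0.61 for COX1 to 1.87 for ND3 with a median of 1.08, and against DKO from 0.73 to 1.78 with a median of 1.33, while the median over all genes tested was 0.09 against WT and 0.04 against DKO. Many other genes were called too: 51.3% of genes in TKO against WT in either direction (31.2% higher, 20.1% lower) and 48.6% in TKO against DKO (26.8% higher, 21.8% lower). For all 13, every TKO library lay above every WT and every DKO library, a pattern shown by 36.1% of genes tested against WT and 30.1% against DKO. Calls were made by limma at a Benjamini-Hochberg adjusted p under 0.05 over all genes.

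ND3, a small membrane subunit of complex I (M:9459-9806), read 136, 173 and 141 RPKM in WT, 177, 159 and 144 in DKO, and 533, 685 and 450.2 in TKO. WT and DKO overlapped and TKO was clear of both, 1.87 ± 0.15 (SE) above WT (limma, adjusted p = 8.81e-06, n = 3 per group) and 1.78 ± 0.15 above DKO (adjusted p = 1.60e-05). ND2, a proton-pumping subunit of complex I, read 169, 198 and 182 RPKM in WT, 197, 167 and 140.2 in DKO, and 427, 662 and 411 in TKO. Its TKO difference from WT was 1.41 ± 0.18 (limma, adjusted p = 0.00014). ND1, the subunit beside the ubiquinone site, read 294, 309.8 and 295 RPKM in WT, 273, 282 and 206 in DKO, and 681, 1231 and 585 in TKO. The TKO libraries of ND1 were also the most scattered among themselves, and the difference from WT was 1.39 ± 0.23 (limma, adjusted p = 0.000759). ND4, ND4L and ND5 rose by 1.08, 1.29 and 1.13 against WT and by 1.33, 1.35 and 1.47 against DKO. ND6, encoded on the other strand, read 97.9, 103 and 102 RPKM in WT, 109, 84.5 and 67.6 in DKO, and 249.96, 291 and 221 in TKO. It lay 1.31 ± 0.15 above WT (limma, adjusted p = 8.68e-05), within the range of the plus-strand genes. Since the reads do not mark strand, the ND6 values may hold RNA from either strand.

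COX1, the catalytic subunit of complex IV (M:5328-6872), showed the smallest of the 13 rises. It read 604, 617 and 707 RPKM in WT, 691, 634 and 468 in DKO, and 912, 1192 and 859.97 in TKO, a difference from WT of 0.61 ± 0.15 (limma, adjusted p = 0.00806). COX3, which sits beside it in the enzyme, read 1102, 1138 and 1464 in WT, 1196, 1149 and 915 in DKO, and 2164, 2845 and 1796 in TKO. CYTB, the membrane core of complex III, read 608, 677 and 793 in WT, 560.4, 556 and 467 in DKO, and 1014, 1723 and 1024 in TKO, 0.82 ± 0.19 above WT (limma, adjusted p = 0.0048). ATP6, the proton channel of ATP synthase, read 1230.4, 1231 and 1399 in WT, 955, 1277 and 1052 in DKO, and 1964, 2817 and 2149 in TKO. COX2, COX3, ATP6 and ATP8 rose by 0.98, 0.86, 0.83 and 0.93 against WT. TKO replicate 2 was the highest library for all 13 genes.

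The rises were unequal within a library. ND3 per COX1 was 0.200 to 0.280 in WT, 0.251 to 0.307 in DKO and 0.523 to 0.584 in TKO. The TKO range stood clear of both, but these genes had the largest and smallest of the 13 rises. Their ratio is therefore no separate support. The same ratio was 0.289 and 0.359 in PRC1-WT and 0.411 in both PRC1-CD libraries. ND6 per ND5 was 1.06 to 1.19 in WT and 1.17 to 1.40 in TKO, ranges that overlapped. As a share of summed RPKM, the 13 genes made 1.72, 2.38 and 1.58% in TKO (1.89 ± 0.429, SD, n = 3), 0.897, 0.936 and 1.07% in WT (0.967 ± 0.0899) and 0.868, 0.885 and 0.724% in DKO (0.826 ± 0.0885). The nuclear members' share was 4.08 to 4.22% in TKO, 3.79 to 3.97% in WT and 3.77 to 3.95% in DKO, so the ratio of the sums averaged 0.459 in TKO, 0.247 in WT and 0.213 in DKO. Shares are sums over the members and were not tested.

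**Figure D1:**
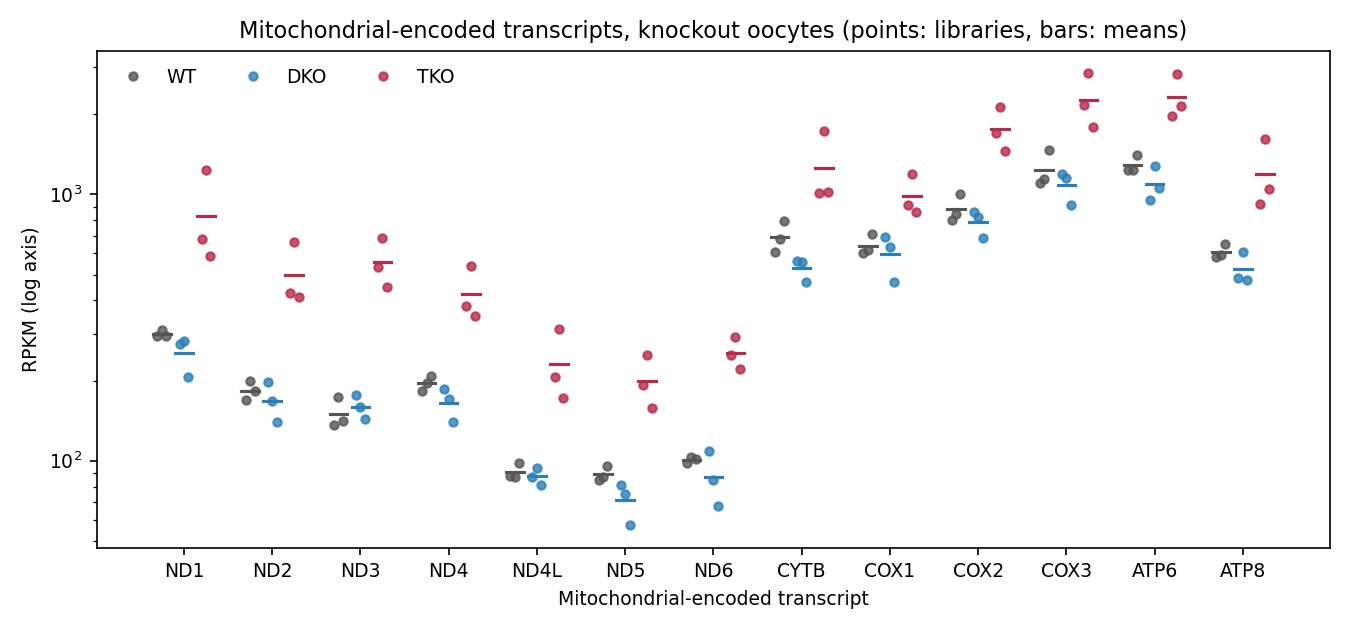
Levels of the 13 mitochondrial-encoded mRNAs in the 9 knockout-series oocyte libraries, in RPKM on a log axis, 1 point per library coloured by genotype, with bars at group means. For every gene the 3 TKO points lie above the WT and DKO points, from COX1 (difference from WT 0.61) to ND3 (1.87).

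No mitochondrial-encoded mRNA was called in DKO or PRC1-CD oocytes. In DKO, limma called 0 of 13 against WT, with 0 at an unadjusted p under 0.05 and a median difference of -0.22 (1 lower in a fit of WT and DKO alone, and 1 without DKO replicate 1), while 28.8% of all genes were called (17.5% higher, 11.3% lower). Of the 13 differences 12 lay below 0, as did 5935 of 12873 over all genes. In PRC1-CD, limma likewise called 0 of 13, again with 0 at an unadjusted p under 0.05 and a median of -0.06, while 22.9% of all genes were called (17.3% higher, 5.61% lower). The 2 PRC1-WT libraries were far apart: the 13 genes made 2.11 and 1.31% of summed RPKM there, and 1.77 and 1.48% in PRC1-CD, which lie inside the controls' spread. ND3 read 416 and 206 RPKM in PRC1-WT and 436 and 317 in PRC1-CD, overlapping groups. The test of TKO against DKO above is the direct test of whether these genotypes differed from each other.

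Nuclear members moved in both directions in every oocyte comparison. In TKO against WT, 26 of the 91 tested were called higher and 14 lower, with a median difference of 0.06 against 0.09 for all genes. In TKO against DKO the counts were 18 and 16 (median 0.04, as for all genes), in DKO against WT 14 and 7 (median 0.07, all genes 0.03), and in PRC1-CD 3 and 2 (median 0.13, all genes 0.04). The called shares of nuclear members in TKO and DKO were thus near or below the background percentages given above, and the PRC1-CD share was below it. The PRC1-CD libraries also had higher sums of granulosa and cumulus markers than PRC1-WT (32.9 to 37.8 against 17.7 to 18.9 RPKM). Of the 10 listed, 3 were tested, and limma called 2 higher and 0 lower. Stroma and blood markers also summed higher (4.99 to 5.97 against 0.97 to 1.05), where 1 of 6 listed was tested (Dcn, called higher). Trophectoderm markers summed higher too (44.4 to 54.2 against 15.2 to 16.7), with 3 of 4 tested called higher and 1 lower by limma. The TKO libraries had higher sums of trophectoderm markers than WT (15.7 to 25.8 against 10.5 to 12.99). Of the 2 tested, limma called 1 higher (Krt8) and 1 lower (Gata3). Inner cell mass sums were also higher in TKO (26.5 to 34.7 against 16.9 to 18.9), with 2 of 3 tested called higher and 0 lower. The part of these markers in the members' changes, and that of the embryo label on PRC1-CD replicate 2, was not tested. The 3 nuclear members that did not pass the filter on low values in oocytes were Cox7b2, Cox8b and Ndufaf1. The split between higher and lower depends on scaling: with median-ratio scaling it was 12 higher and 22 lower in TKO against WT and 5 and 14 in DKO against WT, and with quantile scaling 21 and 18, and 10 and 12. With libraries rescaled without the mitochondrial genes it was 10 and 10 in DKO against WT and 23 and 13 in TKO against DKO. In PRC1-CD, quantile scaling gave 3 and 4 and moved the all-gene median to -0.08, and median-ratio scaling moved it to -0.07. Leaving out WT replicate 3, WT replicate 2 or DKO replicate 2 left 10, 12 and 12 called in DKO against WT in place of 21.

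**Figure D2:**
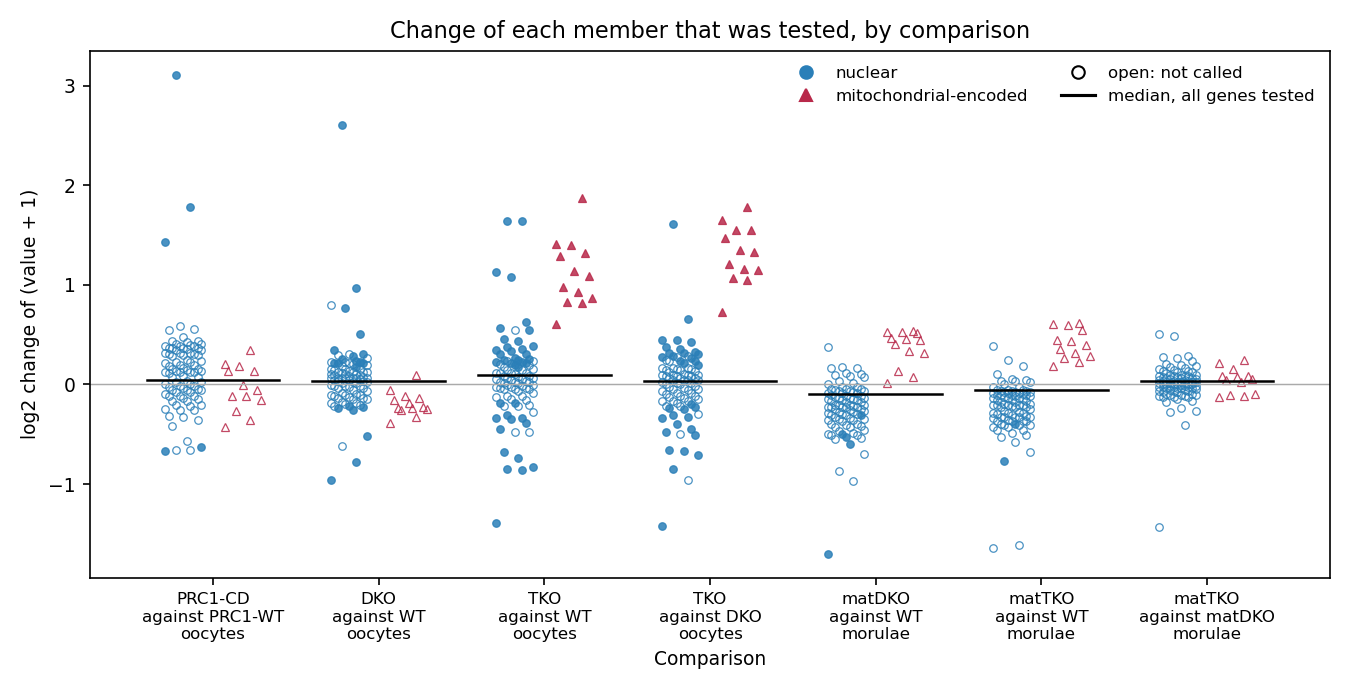
Log2 differences of the members in each comparison, nuclear and mitochondrial-encoded side by side, on the log2(value + 1) scale, 1 point per gene (filled where called, open where not), with a bar at the median of all genes tested. The 13 mitochondrial-encoded genes lie at 0.61 or above in TKO against WT, while the nuclear members spread to both sides of 0 (median 0.06).

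Complex I had called nuclear members in both directions. Of all genes tested in TKO against WT, 31.2% were called higher and 20.1% lower. The shares were 26.8% and 21.8% in TKO against DKO, and 17.5% and 11.3% in DKO against WT. In TKO against WT, 10 of 43 rose and 8 fell, of which the 29 accessory subunits gave 8 and 4, the 7 core subunits 1 and 2, and the 7 tested assembly factors 1 and 2. The balance turned with scaling, to 8 and 11 of 43 with quantile scaling and 4 and 14 with median-ratio scaling. Ndufb7, an accessory subunit facing the intermembrane space, read 269, 296 and 293 RPKM in WT, 318, 331 and 337 in DKO, and 488, 379 and 471 in TKO, 0.63 ± 0.09 above WT (limma, adjusted p = 0.000325). In the other direction, the accessory subunit Ndufv3 read 168, 174 and 179 RPKM in WT, 189, 177 and 163 in DKO, and 94.8, 108 and 88.9 in TKO, and fell by 0.83 against WT and by 0.85 against DKO. The accessory subunit Ndufa7 read 257, 280.5 and 265 in WT, 229, 259 and 217 in DKO, and 135, 160.0 and 149.9 in TKO, a drop of 0.85 from WT. Ndufc1 read 189, 176 and 169.5 in WT and 119, 86.8 and 90.2 in TKO, having dropped by 0.86. For these 3 falling subunits every TKO library lay below every WT library. The share of all genes with that pattern was not computed, so it does not set these 3 apart. In TKO against DKO, 5 of 43 rose and 12 fell, including Ndufaf7 (an arginine methyltransferase needed for assembly), which fell by 0.51. In DKO against WT, 7 rose and 2 fell, and this balance too turned with scaling, to 5 and 4 with quantile scaling, 3 and 2 without the mitochondrial genes and 2 and 5 with median-ratio scaling.

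Complex I assembly factors did not move as a block. Ndufaf2, which acts late in assembly (13:108052589-108158652), read 124, 124 and 120.4 RPKM in WT, 176, 178 and 169.8 in DKO, and 186, 174 and 180.2 in TKO. It was 0.50 above WT in DKO (limma, adjusted p = 0.000115) and 0.55 in TKO (adjusted p = 3.07e-05), with no overlap between WT and either knockout. Ndufaf3, an early factor, read 71.4 and 72.2 RPKM in PRC1-WT and 43.9 and 45.4 in PRC1-CD (-0.67 ± 0.15, limma, adjusted p = 0.0171, n = 2 per group). Its partner Ndufaf4 read 165 and 171 in PRC1-WT and 105 and 112 in PRC1-CD (-0.62 ± 0.15, limma, adjusted p = 0.0229), and was also lower in TKO than in WT (-0.34, adjusted p = 0.00308). These were the only complex I members called in PRC1-CD, 0 of 43 higher and 2 lower (all genes 17.3% higher, 5.61% lower). Both calls were lost when any 1 of the 4 libraries was left out. Ndufaf6 and the accessory subunit Ndufs4 were higher in DKO by 0.35 and 0.30.

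Complex II, in TKO against WT, had 0 of 4 higher and 2 lower, where 31.2% of all genes were called higher and 20.1% lower. Sdhc, one of the pair of membrane anchors of succinate dehydrogenase (1:171129157-171150640), read 106, 105 and 106 RPKM in WT, 109, 111 and 103 in DKO, and 43.9, 37.2 and 37.8 in TKO. WT and DKO overlapped, whereas TKO was lower than WT by 1.39 ± 0.07 (log2 -1.39, limma, adjusted p = 7.19e-07) and than DKO by a log2 difference of -1.42 (adjusted p = 9.55e-07). Sdha, whose promoter is printed above, read 37.0, 39.4 and 38.0 in WT, 27.4, 24.97 and 26.9 in DKO, and 30.6, 30.3 and 28.3 in TKO, lower than WT in both (DKO -0.51, adjusted p = 0.000521, and TKO -0.35, adjusted p = 0.00229, limma). Sdhb, the iron-sulfur subunit, was higher in DKO than in WT (0.29, limma, adjusted p = 0.0217) and lower in TKO than in DKO (-0.40, adjusted p = 0.0023). Sdhd, the other anchor, read 225, 236 and 225 in WT and 196, 240.5 and 238 in TKO and was not called in any oocyte comparison. In PRC1-CD limma called 0 of the 4, with 0 at an unadjusted p under 0.05. Sdhc read 92.1 and 97.6 RPKM in PRC1-WT and 116 and 119.7 in PRC1-CD, so it was not lower there.

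Of the 9 complex III members, 4 rose and 0 fell in TKO against WT, where 31.2% of all genes were called higher and 20.1% lower. The counts were 2 and 0 in TKO against DKO, and 1 and 0 in both DKO against WT and PRC1-CD against PRC1-WT. In the same order, 26.8, 17.5 and 17.3% of all genes were called higher, and 21.8, 11.3 and 5.61% lower. With median-ratio scaling the TKO count against WT was 1 and 0 and the DKO count 0 and 0. Uqcrc1 (9:108936648-108949641) read 2.84, 2.12 and 1.12 RPKM in WT, 4.47, 3.5 and 4.37 in DKO, and 5.23, 8.25 and 3.13 in TKO. Its TKO libraries all lay above WT (1.08 ± 0.28, limma, adjusted p = 0.0101), and its DKO difference of 0.79 missed the threshold (adjusted p = 0.0617). In the PRC1 table it read 2.16 and 4.39 in PRC1-WT and 19.1 and 9.0 in PRC1-CD (1.78 ± 0.38, limma, adjusted p = 0.0145), a call lost when any 1 library was left out or when no filter was used. Uqcrc1 ranked 9610 among all genes in WT oocytes and 558 in WT morulae, in tables that were normalised separately.

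Complex IV had 5 of 18 higher and 3 lower in TKO against WT, 6 and 2 in TKO against DKO, 3 and 2 in DKO against WT, and 1 and 0 in PRC1-CD. In the same order, 31.2, 26.8, 17.5 and 17.3% of all genes were called higher, and 20.1, 21.8, 11.3 and 5.61% lower. With median-ratio scaling the DKO count turned to 2 and 5. Cox8c, a restricted form of the smallest subunit (12:102899306-102900534), read 6.11 and 8.47 RPKM in PRC1-WT and 66.4 and 73.4 in PRC1-CD (3.11 ± 0.19, limma, adjusted p = 0.000157). In the other oocyte table it read 6.88, 7.96 and 4.83 in WT, 48.5, 45.6 and 38.6 in DKO, and 11.2, 42.6 and 22.3 in TKO. Both knockouts lay above WT, DKO by 2.60 ± 0.37 (limma, adjusted p = 0.000649) and TKO by 1.64 ± 0.37 (adjusted p = 0.00426), and the TKO libraries ranged widely. The TKO difference from DKO, -0.96, missed the threshold (limma, adjusted p = 0.0513). Cox8a, the widespread form, was 418, 431 and 441 RPKM in WT and 404, 384 and 377 in DKO, so Cox8c stayed the minor form.

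Other complex IV isoforms fell or shifted less. Cox7c (13:86044798-86046795), an abundant small subunit, read 760.2, 815 and 820.2 RPKM in WT, 485, 482 and 427 in DKO, and 614, 647 and 638 in TKO. It was lower than WT in both (DKO -0.78 ± 0.06, adjusted p = 2.18e-05, and TKO -0.33, adjusted p = 0.00165, limma), and TKO was higher than DKO (0.45, adjusted p = 0.000335). Cox6a2 (7:128205435-128206366) read 49.3, 39.9 and 45.4 in WT, 23.5, 21.2 and 23.0 in DKO, and 27.8, 22.9 and 32.5 in TKO (DKO -0.96 ± 0.12, adjusted p = 0.000378, and TKO -0.68, adjusted p = 0.00129, limma). Cox5b (1:36691487-36693388), a zinc-binding subunit, read 646, 702 and 681 in WT, 651, 621 and 635 in DKO, and 980.4, 954 and 1079 in TKO (0.57 ± 0.06 above WT, limma, adjusted p = 4.82e-05). Cox4i1, the widespread form of its subunit, read 637, 701 and 707 in WT and 813, 974 and 986 in TKO, and was higher in TKO by 0.43. Cox7a2l, which joins complexes III and IV, was higher in DKO by 0.26 and in TKO by 0.17. Low forms moved on small values: Cox4i2 by 0.77 in DKO (limma, adjusted p = 0.0238) and Ndufa4l2 by -0.74 in TKO, from 1.46 to 0.467 RPKM on average.

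Complex V had 1 member, Atp5g3, that was higher in all 3 oocyte mutants. Atp5g3 (2:73908447-73912464) read 73.0 and 89.7 RPKM in PRC1-WT and 214 and 225 in PRC1-CD (1.43 ± 0.17, limma, adjusted p = 0.00132). In the knockout table it read 93.1, 93.9 and 84.7 in WT, 207, 168 and 162 in DKO, and 163, 251 and 192 in TKO, so both knockouts stood clear of WT (DKO 0.97 ± 0.14, adjusted p = 0.000906, and TKO 1.13 ± 0.14, adjusted p = 0.000163, limma). Atp5g2, another gene for the same c subunit, read 172, 179 and 189 in WT, 151, 153 and 156 in DKO, and 225, 204 and 199 in TKO, lower in DKO by a log2 difference of -0.23 and higher in TKO than in DKO by 0.44. Atp5c1, the gamma subunit that turns inside the catalytic head, read 144, 140.0 and 142 in WT and 179, 203 and 205 in TKO, a rise of 0.46. Its pseudogene Atp5c1-ps read 1.67, 1.45 and 2.43 in WT and 7.64, 7.24 and 8.52 in TKO. Reads of these near-identical copies could be split between them, so the rise of 1.64 for the pseudogene is uncertain. Atp5e, the highest member in WT, was lower in DKO by -0.24 and in TKO by -0.19 on the log2 scale. In all, complex V had 6 of 16 higher and 1 lower in TKO against WT, 4 and 0 against DKO, 2 and 2 in DKO against WT, and 1 and 0 in PRC1-CD. In the same order, 31.2, 26.8, 17.5 and 17.3% of all genes were called higher, and 20.1, 21.8, 11.3 and 5.61% lower. With median-ratio scaling the TKO counts were 2 and 1 against WT and 3 and 1 against DKO, and with quantile scaling 4 and 0, and 3 and 3.

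**Figure D3:**
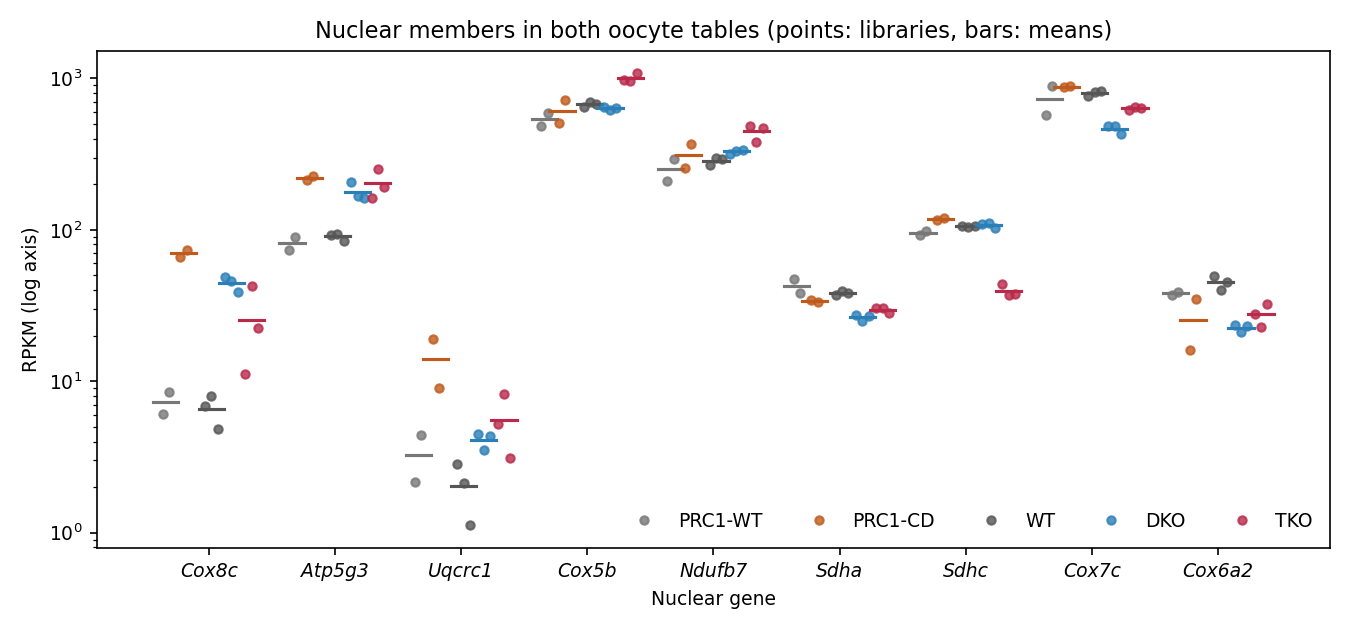
Levels of nuclear members named in the text in the oocyte libraries, in RPKM on a log axis, 1 point per library by genotype, with bars at group means. Cox8c and Atp5g3 are higher in PRC1-CD and DKO than in their controls, and Sdhc is lower in the TKO libraries (37.2 to 43.9 against 105 to 106 in WT).

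Genes that build or feed the respiratory chain were read from lists outside the name rule, whose counts stand beside the 51.3% of all genes called in TKO against WT, 48.6% in TKO against DKO, 28.8% in DKO against WT and 22.9% in PRC1-CD. Of 38 electron carriers and assembly factors, 7 rose and 11 fell in TKO against WT, led by Sdhaf3, a factor for complex II (-1.23), Coa3, which stabilises COX1 during its synthesis (-0.90), and Oxa1l, the inner-membrane insertase (0.73). In TKO against DKO 6 rose and 13 fell, in DKO against WT 4 and 4 of 38 (Taco1, an activator of COX1 translation, 0.70), and in PRC1-CD 0 and 2 of 36 (Surf1 -0.66 and Cox10 -0.63, both complex IV assembly factors). Of 18 tricarboxylic acid cycle enzymes, 6 rose and 7 fell in TKO against WT. Idh3g, a regulatory subunit of isocitrate dehydrogenase, differed by -2.80 and Idh3b by -0.88, while Idh2 differed by 0.83. The counts were 4 and 7 in TKO against DKO, 5 and 2 in DKO against WT (Suclg1 0.80) and 2 and 0 in PRC1-CD (Idh2 0.85 and Fh1, fumarase, 0.51).

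Genes for mitochondrial transcription, RNA processing and DNA maintenance also went both ways, 8 of 28 higher and 6 lower in TKO against WT, where 31.2% of all genes were called higher and 20.1% lower. Fastkd2, an RNA-binding protein of mitochondrial RNA granules, averaged 19.7 RPKM in WT and 2.20 in TKO (-2.72), and Trmt10c, a subunit of the enzyme that cuts tRNAs out of the long transcripts, differed by -0.86. In TKO against DKO 5 rose and 7 fell, with Hsd17b10, a further subunit of that enzyme, at -2.73. In DKO against WT 7 rose and 4 fell, with Hsd17b10 at 2.13 and Mterf3, a repressor of mitochondrial transcription, at 1.91. In PRC1-CD 2 rose and 2 fell, with Hsd17b10 at 1.18 and Polrmt, the mitochondrial RNA polymerase, at -1.47. Regulators of mitochondrial biogenesis gave 3 of 9 higher and 1 lower in TKO against WT (Yy1 0.71, Ppara 0.71, Esrrb -0.51) and 3 and 2 in TKO against DKO (Nfe2l2 -0.89). Limma called 0 of 9 of them in DKO (2 higher and 0 lower at an unadjusted p under 0.05) and 0 of 8 in PRC1-CD (1 and 1). Oocyte markers gave 0 higher and 3 lower in TKO, and the part of these or of the granulosa sums above in the members' changes was not tested.

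In morulae no mitochondrial-encoded mRNA was called in either maternal knockout. Against WT, limma called 0 of 13 in matDKO, with 2 higher at an unadjusted p under 0.05, all 13 differences above 0 and a median of 0.44, and 0 of 13 in matTKO, with 4 higher at an unadjusted p under 0.05, all 13 above 0 and a median of 0.40. With quantile scaling 3 of 13 lay below 0 in matDKO (median 0.33) and 2 in matTKO (median 0.21). Few genes of any kind were called: 1.74% in matDKO (0.329% higher, 1.41% lower), 0.567% in matTKO (0.176% higher, 0.391% lower) and 0.0689% between the 2 knockouts (0.0460% higher, 0.0230% lower in matTKO). ND3 ranged from 1625 to 4184 TPM in WT (median 2849), from 1868 to 9526 in matDKO (3890) and from 1795 to 12159 in matTKO (3041), all overlapping. COX3 ranged from 8420.3 to 19989 in WT (median 10976), 6947 to 40617 in matDKO (11532) and 9536 to 21394 in matTKO (15052). ND6 had medians of 3316, 5088 and 4989 TPM and ND5 of 1447, 2033 and 2226. These were the genes with the smallest adjusted p in matDKO, 0.145 and 0.181 by limma.

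As a share of the library, the 13 genes made 4.81 to 12.0% in WT morulae (median 7.02), 5.30 to 25.002% in matDKO (7.72) and 5.64 to 21.4% in matTKO (8.82). The upper ends came from libraries that stood apart, matDKO 7 at 25.002%, matTKO 9 at 21.4% and matTKO 8 at 16.5%, while matDKO 8 and 9 lay at 7.21 and 8.12%. Without the 5, the ranges were 5.30 to 14.6% (median 7.33) and 5.64 to 12.4% (7.95). Without them limma still called 0 of 13 in both knockouts, with medians of 0.22 and 0.20, 2 and 4 of 13 below 0, and 2 and 1 higher at an unadjusted p under 0.05. ND3 per COX1 was 0.314 to 0.541 in WT, and reached 1.69 and 0.934 in matDKO 8 and 9 and 2.03 and 0.945 in matTKO 8 and 9. The fifth library that stood apart, matDKO 7, lay inside the WT range at 0.527. Other libraries also left that range, with matDKO 4, 10 and 6 above it at 0.752, 0.707 and 0.597. The remaining matDKO and matTKO libraries ranged from 0.167 (matTKO 3) to 0.377 (matTKO 6). The nuclear share was 5.19 to 6.96% in WT (median 6.29), 4.65 to 6.66% in matDKO (5.84) and 4.06 to 6.72% in matTKO (5.95).

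**Figure D4:**
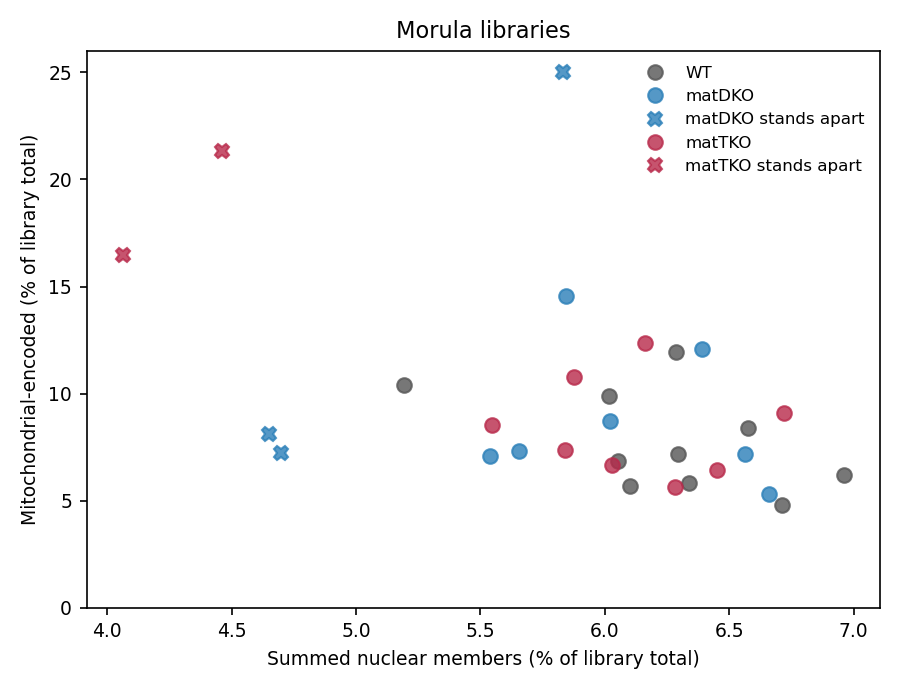
Share of each morula library's summed TPM taken by the 13 mitochondrial-encoded members (vertical axis, percent) against that of the 94 nuclear members (horizontal axis, percent), 1 point per library by genotype, with crosses for the 5 libraries that stood apart. The mitochondrial share reaches 25.002% in matDKO 7 and 21.4% in matTKO 9, against at most 12.0% in WT.

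Called nuclear members in morulae were all lower. In matDKO 5 of 89 fell and 0 rose, with 78 of 89 differences below 0 and a median of -0.22 against -0.09 for all genes. In matTKO 2 of 89 fell and 0 rose, with 79 below 0 and a median of -0.21 against -0.06. All genes leaned the same way, with 7967 of 13056 below 0 in matDKO and 7496 of 13056 in matTKO. With quantile scaling the medians were -0.14 and -0.13 and 71 and 72 of 89 lay below 0. The background was 1.74% and 0.567% of all genes in either direction. Between matTKO and matDKO limma called 0 of 89 nuclear members, with 1 higher and 2 lower at an unadjusted p under 0.05, and 0 of 13 mitochondrial-encoded, with 0 at an unadjusted p under 0.05. Without the 5 libraries that stood apart, 0 of 90 were called by limma in matDKO (1 higher and 16 lower at an unadjusted p under 0.05), where 1.24% of all genes were called. In that fit 65 of 90 lay below 0, with a median of -0.10 against -0.04 for all genes. In matTKO without them, 5 of 90 were called lower, namely Atp5g3, Cox7a2l, Cox8c, Ndufaf2 and Ndufv3, where 2.09% of all genes were called. There 61 of 90 lay below 0, with a median of -0.07 against -0.02 for all genes. Nuclear members that did not pass the filter in morulae were Cox4i2, Cox6a2, Cox7b2, Cox8b and Ndufa4l2. Trophectoderm markers summed to 871 to 3758 TPM in WT, 137 to 2355 in matDKO and 247 to 2288 in matTKO, with medians of -1.07 and -0.86 and all 6 below 0. Limma called 0 of these 6 in both, with 4 and 3 lower at an unadjusted p under 0.05, and their part in the members' values was not tested. Inner cell mass markers overlapped (222 to 378, 170.04 to 370.3 and 151 to 519.99 TPM).

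The 5 called in matDKO came from 4 complexes. Cox7b, a subunit of complex IV on the X chromosome (X:106015700-106022450), ranged from 349 to 700.1 TPM in WT (median 397), from 45.9 to 377 in matDKO (127) and from 38.7 to 378 in matTKO (182). Most of the matDKO range lay below WT, with a small overlap, and the difference was -1.70 ± 0.40 (limma, adjusted p = 0.0225, n = 10 per group). That of matTKO, -1.61, missed the threshold (adjusted p = 0.0504). Atp5g3, higher in every mutant oocyte group, was lower here. It ranged from 1098 to 1813 TPM in WT (median 1509), 579.9 to 1435 in matDKO (979) and 569.9 to 1253 in matTKO (1077), with differences of -0.60 ± 0.15 (limma, adjusted p = 0.0374) and -0.58 (adjusted p = 0.0641). Uqcrfs1, the iron-sulfur protein of complex III, had medians of 242 in WT and 159 in matDKO (-0.52, limma, adjusted p = 0.0462). Ndufs7, a core subunit of complex I, had medians of 587 and 389 (-0.50, adjusted p = 0.0438), and Atp5h, a stalk subunit of ATP synthase, 1255 and 966 (-0.31, adjusted p = 0.0434, both limma). The 5 adjusted p-values lie between 0.0225 and 0.0462, close under the threshold. Cox7b lost its call without WT replicate 8, matDKO replicate 6 or matDKO replicate 7, and each of these left 0 of the 5 called.

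The 2 called in matTKO both belong to complex I. Ndufaf2, which was higher in DKO and TKO oocytes, ranged from 38.7 to 67.1 TPM in WT (median 52.3) and from 12.5 to 63.7 in matTKO (28.8), a difference of -0.77 ± 0.19 (limma, adjusted p = 0.0446). Ndufv3, which was lower in TKO oocytes, ranged from 293 to 426 in WT (median 353) and from 219.7 to 327 in matTKO (264), a difference of -0.40 (adjusted p = 0.039, limma). Cox8c ranged from 0 to 12.97 TPM in WT, 0 to 13.8 in matDKO and 0 to 3.74 in matTKO. Sdhc had medians of 106 TPM in WT, 79.7 in matDKO and 96.4 in matTKO, with ranges that overlapped. For the lists outside the name rule, limma called 0 of 41 electron carriers and assembly factors in matDKO and matTKO (7 and 5 lower at an unadjusted p under 0.05) and 0 of 18 tricarboxylic acid cycle enzymes (4 and 2 lower). It called 0 of 10 biogenesis regulators (2 higher and 1 lower in matDKO, 1 higher in matTKO at an unadjusted p under 0.05). Of 28 genes for mitochondrial transcription and RNA, 0 were called in matDKO (1 higher and 6 lower unadjusted), and in matTKO 1 was, since Hsd17b10 fell by 1.94 (limma, adjusted p = 0.0107).

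**Figure D5:**
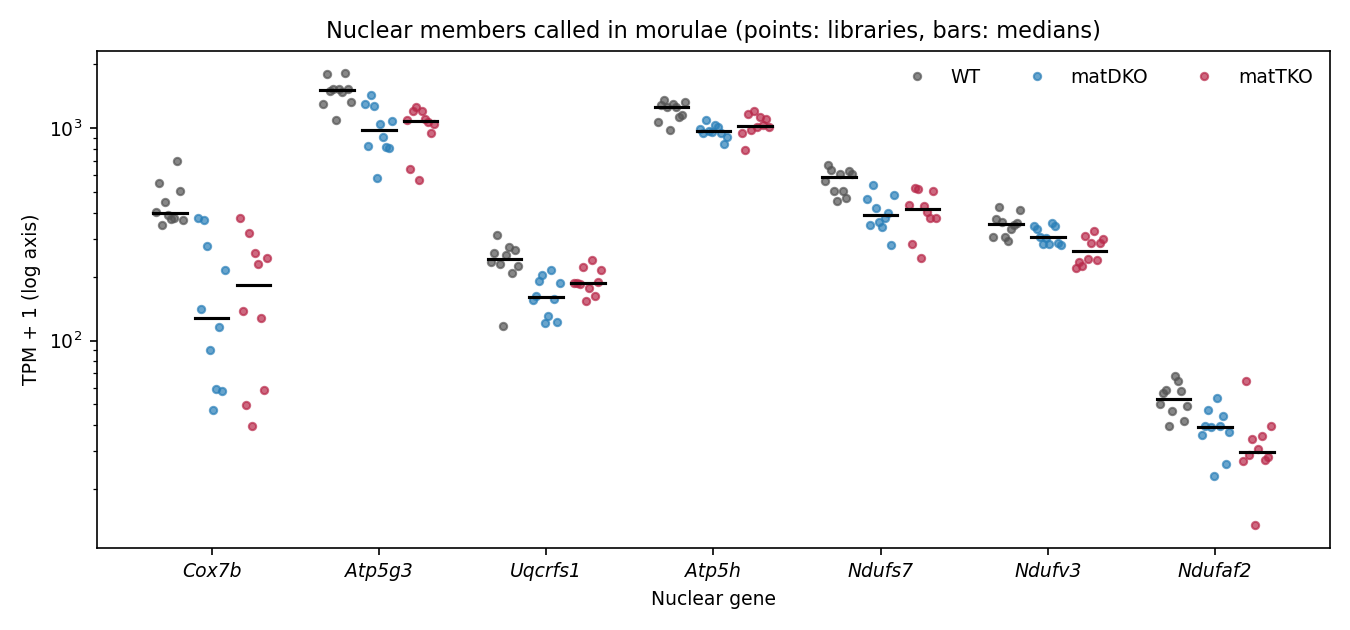
Levels of the nuclear members called in morulae, as TPM + 1 on a log axis, 1 point per library by genotype, with bars at group medians. Cox7b has WT values from 349 to 700.1 and matDKO values from 45.9 to 377. All called members, Cox7b included, overlap between groups.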

How the data were processed

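RNA was measured by SMART-Seq v4 and Nextera XT libraries, per the labels' protocols. This chemistry primes on poly(A) and does not mark strand. The submitters' processing notes name the read counter featureCounts 1.6.0, the quantifier RSEM 1.3.1, the aligner STAR (2.7.6 and also 2.7.3) and the trimmer Trim Galore 0.6.4, with mm10 and GRCm38, without saying which step made which table. Both oocyte tables hold RPKM values made by the authors and summing to 622628 to 670409 and 658853 to 686687 per library. The deposited morula table carries RPKM in its name, but its libraries sum to 999421 to 999922, so its values were treated as TPM. Read depth is unknown for all tables, so no counting interval could be given.

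From these values, 27 date-like symbols were dropped from each oocyte table. Any gene whose group mean reached 1 somewhere in a table was kept, a pseudocount of 1 was added before taking log2, and limma 3.58.1 was run under R 4.3.3 (a linear model with trended empirical Bayes variances, two-sided, all groups of a table in 1 fit, Benjamini-Hochberg adjustment over all genes, called at an adjusted p under 0.05). Of the 94 nuclear members, 91 passed this filter in both oocyte tables and 89 in morulae, none of them only through a mutant group, and all 13 mitochondrial-encoded members passed in each table. Groups came from the labels, 7 comparisons were made, and no test crossed tables. Summed shares were described with no test.

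Genes named are the 13 mitochondrial-encoded members, up to 6 called nuclear members with the largest change per direction and comparison, the 2 highest nuclear members of each wild-type group, Sdha to Sdhd, the listed complex IV isoforms, and up to 3 called genes per list; others are stated as chosen after their values were seen or stand in the closing section. Members and gene lists were chosen with earlier results of these data known. Replicate numbers were checked for pairing, with a mixed outcome in morulae, and the main fits did not use them as pairs. Alternatives were another pseudocount (0.1), other filters (none, a mean of 5), quantile and median-ratio scaling, rescaling without mitochondrial-encoded transcripts, the 2 groups alone, a replicate block, and leaving out each library. The fit without the 5 morula libraries that stood apart, whose mean correlation to their group was under 0.91, was added after seeing the data. Promoter windows came from RefSeq for GRCm38.p6, matched by symbol or synonym for 76 of 94 nuclear members.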

Additional observations from a re-analysis of the deposited data

Results flagged for a closer look

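In 17 of 81 groups of values tested in morulae, 1 library lay far from the others of its group. Chance gives about 1 in 20 for independent groups. These groups share libraries and hold genes that vary together, so the count cannot be set against that rate. Replicate 7 of matDKO was the far library for 9 mitochondrial-encoded genes: ND1 (24384 TPM), ND2 (10711), ND3 (9526), ND4 (11108), ND6 (10037), COX1 (18084), COX2 (29768), COX3 (40617) and ATP6 (43633). It was also far in their summed share, 25.002% of the library. Replicate 9 of matTKO was the far library for ND2 (15363 TPM), ND4 (12466), ND4L (5236) and ND5 (4787), and for Cox8c (3.74). Both are among the 5 libraries that stood apart over the remaining genes. Sdha was low in WT replicate 9 (13.4 TPM), and Ndufaf2 was high in matTKO replicate 8 (63.7 TPM).

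For 11 of 202 effects, every mutant oocyte library lay on one side of the wild-type mean and every mutant morula library on the other. This difference between stages was not tested, since the tables were normalised separately. The share of all genes with the same pattern was not computed, so the count is not a result about the members. Some of the oocyte differences were near 0, such as 0.019 for Ndufa8. In DKO oocytes and matDKO morulae the log2 differences were 0.97 and -0.60 for Atp5g3, 0.12 and -0.31 for Atp5h, 0.13 and -0.52 for Uqcrfs1, 0.18 and -0.29 for Ndufa6, 0.065 and -0.42 for Ndufv2, and 0.10 and -0.40 for Ndufb2. In TKO oocytes and matTKO morulae they were 1.13 and -0.58 for Atp5g3, 0.019 and -0.50 for Ndufa8, 0.12 and -0.43 for Ndufb2, 0.63 and -0.33 for Ndufb7, and 0.084 and -1.61 for Cox7b.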

How the results depend on the processing

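All 13 mitochondrial-encoded members stayed called higher in TKO oocytes, against WT and DKO, under every alternative run. Of 1320 values of 88 single-gene results under alternatives, 1157 kept direction and call, 163 lost the call and 0 reversed. The cause was not tested for any change below. In PRC1-CD the 5 nuclear calls were 2 to 3 with 1 library left out, where the lone library is assumed to vary like the other group. In DKO the 21 nuclear calls were 10 to 16 with 1 library left out, and the 0 mitochondrial-encoded calls were 1 with only the 2 groups compared and 0 to 1 with 1 library left out. In matDKO morulae the 5 nuclear calls were 1 without a filter, 3 with median-ratio scaling, 0 without the 5 libraries that stood apart (added after seeing the data) and 0 to 7 with 1 library left out. In matTKO the 2 were 0 with a pseudocount of 0.1, 1 without a filter, 4 with quantile normalisation, 0 when rescaled without mitochondrial-encoded transcripts, 5 without the libraries that stood apart and 0 to 8 with 1 left out (8 without WT replicate 9, 5 without matTKO replicate 2). Without a filter more genes were tested. Oocyte calls lost when 1 library was left out were Uqcrc1, Ndufaf3 and Ndufaf4 in PRC1-CD (any of the 4), Cox4i2 in DKO (WT 1, WT 2, DKO 2 or DKO 3), Ndufs4 and Atp5g2 in DKO (WT 2, WT 3, DKO 1 or DKO 2), Ndufaf6 in DKO and Ndufa4l2 and Atp5e in TKO (WT 3), Atp5g2 in TKO (WT 1 or WT 2), Ndufs7 in TKO (WT 2 or WT 3), Cox7a1 in TKO against DKO (DKO 2, TKO 1 or TKO 3) and Ndufaf6 in TKO against DKO (any but TKO 3).

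Replicate numbers were not used as pairs in the main fits. Same-numbered deviations correlated over 0.1 in 1 of 9 pairs in the knockout oocytes and 13 of 30 in morulae (up to 0.58). The same-numbered library was the best match in 3 of 9 and 9 of 30 pairs, so shared structure in morulae cannot be set aside. In the PRC1 oocytes 0 of 2 pairs passed 0.1, but both hold the same value (0.090), since deviations within 2 libraries mirror each other. With the replicate block, nuclear calls were 8 in PRC1-CD, 22 in DKO, 42 in TKO against WT, 36 in TKO against DKO, 9 in matDKO and 6 in matTKO, and mitochondrial-encoded calls were unchanged in number. Depth is unknown, so limits at low values such as Uqcrc1 and Cox8c cannot be set.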
